A study of Homo sapiens with 12 samples.

Results

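The Krüppel-like factors (KLFs) examined here were the mRNAs of KLF2, KLF3, KLF4, KLF5, KLF6, KLF7, KLF9, KLF10, KLF11 and KLF13, taken as the rows with these symbols in the count tables of both cell lines. All 10 were found, of 27064 gene symbols in all, and all 10 passed the filter on low counts in each line. The tested cells were the mesothelioma line NCI-H226 (H226) given 100 nM SWTX-143, H226 given DMSO, the kidney cancer line ACHN given 100 nM SWTX-143, and ACHN given DMSO. SWTX-143 irreversibly blocks TEADs, the DNA-binding factors that the coactivators YAP and TAZ need. The exposure lasted overnight, and both lines were described by the submitters as lacking functional NF2, an upstream part of the Hippo pathway, so the DMSO cells share that deficiency. Each of the 4 groups held 3 poly(A) RNA libraries, and the labels do not say whether these came from separate cultures, so p-values measure only the spread between libraries, which may be technical.

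KLFs are zinc finger transcription factors that bind GC-rich and CACCC elements in promoters and enhancers. Their DNA-binding ends are alike, and their other ends differ. KLF2, KLF4, KLF5, KLF6 and KLF7 mostly activate genes through acetyltransferases, KLF3 represses through CtBP, and KLF9, KLF10, KLF11 and KLF13 recruit the SIN3 corepressor. Many are early-response genes whose mRNA moves quickly with growth factors, hormones or mechanical force. In epithelial cells KLF5 is known for promoting proliferation, while KLF4, KLF6, KLF9 and KLF10 have mostly been described as restraining it.

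The promoter windows of 5 members whose mRNA changed in at least 1 line are shown to set the DNA beside the values that follow. They come from RefSeq on GRCh38.p14, run from 250 bases before to 50 bases after the transcription start, and are written 5′ to 3′ on the gene's strand. Capitals mark matches, on either strand, to any of the 8 motifs searched, and touching or overlapping matches form a single run of capitals.
KLF2, chr19:16324576-16324875, plus strand: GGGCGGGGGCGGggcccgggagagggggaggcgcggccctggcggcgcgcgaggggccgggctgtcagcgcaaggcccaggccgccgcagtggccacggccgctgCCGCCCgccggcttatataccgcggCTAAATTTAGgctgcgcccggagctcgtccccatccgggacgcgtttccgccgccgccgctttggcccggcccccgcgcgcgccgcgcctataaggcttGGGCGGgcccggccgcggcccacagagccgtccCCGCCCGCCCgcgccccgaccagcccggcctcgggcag
KLF11 (the second of its windows), chr2:10043971-10044270, plus strand: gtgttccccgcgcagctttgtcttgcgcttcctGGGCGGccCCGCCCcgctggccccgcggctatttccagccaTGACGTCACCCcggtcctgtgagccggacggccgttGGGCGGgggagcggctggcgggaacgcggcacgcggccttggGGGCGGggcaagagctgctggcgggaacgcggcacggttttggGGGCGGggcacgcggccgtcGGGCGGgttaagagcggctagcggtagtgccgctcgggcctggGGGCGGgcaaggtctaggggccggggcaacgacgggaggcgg
KLF13, chr15:31326585-31326884, plus strand: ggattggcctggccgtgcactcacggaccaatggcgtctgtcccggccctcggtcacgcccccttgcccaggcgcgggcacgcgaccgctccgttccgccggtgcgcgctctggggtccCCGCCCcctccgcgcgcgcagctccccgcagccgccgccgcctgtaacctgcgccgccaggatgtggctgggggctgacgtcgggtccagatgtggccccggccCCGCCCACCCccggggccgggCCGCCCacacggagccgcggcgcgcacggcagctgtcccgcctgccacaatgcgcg
KLF5 (the second of its windows), chr13:73058755-73059054, plus strand: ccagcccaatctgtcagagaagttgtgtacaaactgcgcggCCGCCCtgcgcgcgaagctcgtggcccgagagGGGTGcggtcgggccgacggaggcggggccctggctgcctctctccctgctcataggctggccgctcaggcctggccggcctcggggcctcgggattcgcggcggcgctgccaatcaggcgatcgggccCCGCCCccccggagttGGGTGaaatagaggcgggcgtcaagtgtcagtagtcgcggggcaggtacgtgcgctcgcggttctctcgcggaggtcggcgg
KLF6, chr10:3785160-3785459, minus strand: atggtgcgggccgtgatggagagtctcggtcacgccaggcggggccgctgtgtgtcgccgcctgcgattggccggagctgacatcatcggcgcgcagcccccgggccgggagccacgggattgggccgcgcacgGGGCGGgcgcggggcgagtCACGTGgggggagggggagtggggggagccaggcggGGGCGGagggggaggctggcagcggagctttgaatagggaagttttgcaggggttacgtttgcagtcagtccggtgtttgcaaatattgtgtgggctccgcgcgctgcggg

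The RefSeq table matched 8 of the 10 members, with 13 windows in all, and held none for KLF3 and KLF10. KLF9, which also changed, has a window that is not printed above. That window was 32.7% G and C and held no match to any of the 8 motifs. All motifs were searched on both strands. The TEAD motif GGAATG was in 1 of the 13 windows, the fourth of KLF7, and in 14.03% of the 35116 windows of all genes. The GC box, GGGCGG, was in 8 of the 13 windows, belonging to KLF2, KLF4, KLF5, KLF6, KLF7, KLF11 and KLF13, and in 45.0% of all windows. The shorter box CACCC was in 7 windows, of KLF5, KLF7, KLF11 and KLF13, and in 59.9% of all windows. In the KLF2 window the capitals CTAAATTTAG at −120 match the MEF2 consensus, which was in 1 of the 13 windows and in 2.99% of all. In the second KLF11 window the cyclic AMP response element TGACGTCA at −176 runs into a CACCC match, and this element was in 1 of the 13 windows and in 1.85% of all. E-boxes with the letters CACGTG were in 4 windows, of KLF4, KLF6 (at −97), KLF7 and KLF11, and in 7.26% of all windows. Neither the AP-1 motif TGANTCA nor the FOXO motif GTAAACA was in any of the 13 windows, against 7.71% of all windows for AP-1 and 3.42% for FOXO. These are letter matches in short windows and say nothing of binding.

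SWTX-143 raised 6 of the 10 KLF mRNAs in H226 cells (KLF2, KLF3, KLF9, KLF10, KLF11 and KLF13) and lowered 2 (KLF5 and KLF6). In ACHN cells it raised 2 (KLF6 and KLF13) and lowered 1 (KLF5). A gene is written as raised or lowered where its adjusted p was under 0.05 in edgeR's quasi-likelihood test, with Benjamini-Hochberg adjustment over all tested genes. By that rule 40.7% of all tested genes were called in H226, 19% as higher and 21.6% as lower. In ACHN 17.8% were called, 8.43% as higher and 9.37% as lower. The median log2 fold change of the 10 members was 0.29 in H226, against -0.00 for all tested genes, and 0.11 in ACHN, against 0.00. KLF5 fell and KLF13 rose in both lines, and KLF6 was lower in H226 and higher in ACHN. All changes were under 2-fold.

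**Figure D1:**
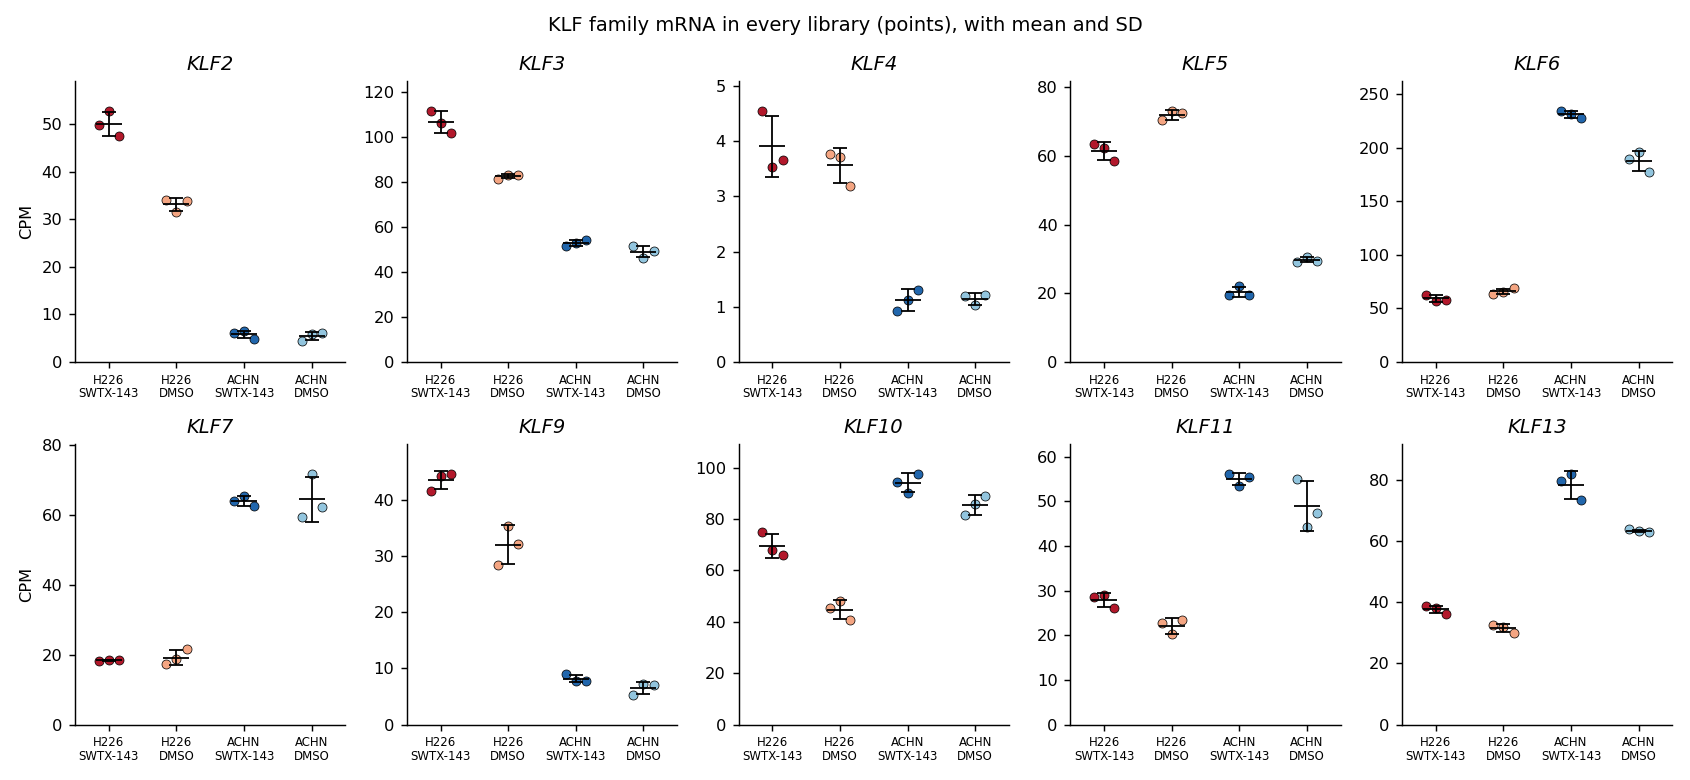
Read counts scaled to library depth (CPM, y axis) of the 10 KLF mRNAs in each of the 12 libraries (points), with the mean and SD of 3 libraries (bars), in H226 and ACHN with SWTX-143 and with DMSO (x axis). KLF2 at 47.6 to 52.7 CPM and KLF10 at 66.1 to 74.8 CPM in treated H226 libraries lie above all H226 DMSO libraries, and KLF5 lies below its DMSO libraries in both lines.

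Among the activating members, KLF2, a factor of endothelial and T-cell quiescence that fluid shear induces, had 49.9, 52.7 and 47.6 CPM in H226 cells with SWTX-143, against 34.0, 31.6 and 33.8 CPM with DMSO. CPM were computed on TMM effective library sizes. All treated H226 libraries lay above all DMSO libraries, with a log2 fold change of 0.59 ± 0.07 SE (95% interval 0.45 to 0.72, adjusted p = 1.4e-10 by edgeR). Of all genes tested in H226, 9.85% had a change at least as large in either direction. In ACHN KLF2 was low, at 6.08, 6.40 and 4.81 CPM with SWTX-143, against 4.40, 5.76 and 6.16 CPM with DMSO. These groups overlapped, and the log2 fold change was 0.06 ± 0.16 SE (95% interval -0.26 to 0.39, adjusted p = 0.852 by edgeR), on 48 to 72 counts per library. The effect in H226 minus that in ACHN was 0.52 ± 0.17 SE on the log2 scale (adjusted p = 0.0236 by edgeR in a joint fit of all libraries). This call depended on single libraries, since the adjusted p was 0.121 without the ACHN SWTX-143 replicate 3, 0.0813 without the ACHN DMSO replicate 2 and 0.155 without the ACHN DMSO replicate 3.

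KLF5, which promotes proliferation of epithelial cells and is an unstable protein, was the member that fell in both lines. In H226 it had 63.5, 62.1 and 58.4 CPM with SWTX-143, against 70.3, 73.0 and 72.5 CPM with DMSO. In ACHN it had 19.6, 22.0 and 19.4 CPM with SWTX-143, against 29.2, 30.5 and 29.5 CPM with DMSO. In both lines every treated library lay below every DMSO library. The log2 fold change was -0.24 ± 0.06 SE in H226 (95% interval -0.35 to -0.13, adjusted p = 0.00041 by edgeR), a 1.18-fold fall. It was -0.57 ± 0.08 SE in ACHN (95% interval -0.73 to -0.41, adjusted p = 1.5e-07), a 1.48-fold fall, and 3.26% of all genes tested in ACHN changed at least as much. The effect differed between the lines by 0.32 ± 0.10 SE on the log2 scale, H226 minus ACHN (95% interval 0.13 to 0.51, adjusted p = 0.0125), so the fall was deeper in ACHN.

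KLF6, an early-response gene described as a tumour suppressor, went opposite ways in the lines. H226 cells had 62.6, 57.2 and 57.9 CPM with SWTX-143, against 63.4, 65.3 and 68.6 CPM with DMSO. ACHN cells had 234, 231 and 228 CPM with SWTX-143, against 190, 196 and 178 CPM with DMSO. Treated libraries lay below the DMSO libraries in H226, narrowly, and above them in ACHN. The log2 fold change in H226 was -0.16 ± 0.06 SE (95% interval -0.28 to -0.04, adjusted p = 0.0232 by edgeR), and 54.7% of all genes there had a change at least as large. This call was lost under other tests and scalings, with an adjusted p of 0.125 after upper-quartile scaling, 0.0929 with library size alone and 0.131 in DESeq2, and also without the H226 SWTX-143 replicate 2 (0.111), the H226 SWTX-143 replicate 3 (0.0562) or the H226 DMSO replicate 3 (0.135). In ACHN the log2 fold change was 0.28 ± 0.04 SE (95% interval 0.20 to 0.37, adjusted p = 1.5e-07), a 1.22-fold rise. The effect in H226 minus that in ACHN was -0.45 ± 0.07 SE (95% interval -0.59 to -0.31, adjusted p = 6.73e-07).

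KLF4 and KLF7 passed the test in neither line. KLF4, a reprogramming and epithelial barrier factor, was the lowest member, with 4.55, 3.53 and 3.66 CPM in H226 with SWTX-143, against 3.78, 3.71 and 3.19 CPM with DMSO, and with 0.929, 1.13 and 1.31 CPM in ACHN with SWTX-143, against 1.19, 1.02 and 1.22 CPM with DMSO. With 29 to 46 counts per library in H226 and 11 to 15 in ACHN, its 95% interval on the log2 scale was -0.28 to 0.51 in H226, and in ACHN it was -0.71 to 0.62. A change of the size seen in other members was thus not detectable at this depth in ACHN. The H226 interval also covers the changes of KLF3, KLF5, KLF6, KLF9, KLF11 and KLF13 there, but not the larger rises of KLF2 and KLF10. KLF7, a factor of neurite outgrowth, had 18.2, 18.3 and 18.5 CPM in H226 with SWTX-143, against 17.2, 18.8 and 21.5 CPM with DMSO. In ACHN it had 64.0, 65.3 and 62.5 CPM with SWTX-143, against 59.5, 71.7 and 62.1 CPM with DMSO. Both groups overlapped in each line, and the 95% interval of the log2 fold change was -0.26 to 0.12 in H226, while in ACHN it was -0.14 to 0.09.

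KLF3, the CtBP-binding repressor, rose in H226. It had 112, 106 and 102 CPM with SWTX-143, against 81.5, 83.2 and 82.9 CPM with DMSO, with no overlap (log2 fold change 0.36 ± 0.05 SE, 95% interval 0.26 to 0.46, adjusted p = 6.27e-08 by edgeR). In ACHN it had 51.8, 52.9 and 54.3 CPM with SWTX-143, against 51.6, 46.4 and 49.3 CPM with DMSO. The treated ACHN libraries lay just above the DMSO ones, and the change of 0.09 ± 0.06 SE was not called (95% interval -0.03 to 0.21, adjusted p = 0.308). The effects differed by 0.26 ± 0.08 SE, H226 minus ACHN (adjusted p = 0.0132), with an adjusted p of 0.0582 without the ACHN DMSO replicate 1. The antisense gene KLF3-AS1 overlaps KLF3, with 320 counts against 5848 for KLF3 over the H226 libraries and 200 against 3426 over the ACHN libraries. The strand setting of the counting is not given in the sources used here, so these reads cannot be assigned to a strand.

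All 4 SIN3-recruiting members of the set examined here rose in H226, where 19% of all tested genes were called higher. KLFs outside that set were not part of this count, and KLF16 among them fell in H226 (log2 fold change -0.48 ± 0.08 SE, adjusted p = 5.4e-07 by edgeR). The count therefore does not describe SIN3-recruiting KLFs as a class. KLF10, an early gene of TGF-beta signalling, had the largest change of any member there, with 74.8, 67.8 and 66.1 CPM with SWTX-143, against 45.2, 48.3 and 40.9 CPM with DMSO. No library overlapped, and the rise was 1.54-fold (log2 fold change 0.62 ± 0.06 SE, 95% interval 0.50 to 0.75, adjusted p = 4.82e-12 by edgeR), a size reached by 8.81% of all genes tested in H226. In ACHN KLF10 had 94.5, 90.3 and 97.6 CPM with SWTX-143, against 81.6, 85.8 and 89.2 CPM with DMSO. These libraries did not overlap either, but the log2 fold change of 0.12 ± 0.05 SE was not called (95% interval 0.02 to 0.22, adjusted p = 0.0798). It was called after upper-quartile scaling (0.0325), with library size alone (0.0255) and without the ACHN SWTX-143 replicate 2 (0.0418). The effect in H226 exceeded that in ACHN by 0.49 ± 0.08 SE (95% interval 0.33 to 0.65, adjusted p = 2.03e-06).

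KLF9, a glucocorticoid- and thyroid hormone-responsive repressor with a daily rhythm in many tissues, had 41.6, 44.2 and 44.6 CPM in H226 with SWTX-143, against 28.4, 35.3 and 32.2 CPM with DMSO. The treated libraries lay above the DMSO libraries (log2 fold change 0.44 ± 0.07 SE, 95% interval 0.29 to 0.58, adjusted p = 1.67e-06 by edgeR). In ACHN it had 8.95, 7.81 and 7.79 CPM with SWTX-143, against 5.22, 7.16 and 7.12 CPM with DMSO. There too the treated libraries were all higher, but the change of 0.32 ± 0.14 SE was not called (95% interval 0.03 to 0.60, adjusted p = 0.121). The difference between the lines was 0.11 ± 0.16 SE, H226 minus ACHN and was not called (95% interval -0.20 to 0.43, adjusted p = 0.728).

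KLF11, a relative of KLF10 linked to diabetes and insulin gene regulation, had 28.6, 29.1 and 26.1 CPM in H226 with SWTX-143, against 22.7, 20.2 and 23.5 CPM with DMSO, with no overlap. Its log2 fold change there was 0.33 ± 0.08 SE (95% interval 0.16 to 0.50, adjusted p = 0.000953 by edgeR). In ACHN it had 56.1, 53.4 and 55.4 CPM with SWTX-143, against 55.1, 44.3 and 47.4 CPM with DMSO. These overlapped, and the change of 0.15 ± 0.06 SE was not called (adjusted p = 0.0844), though it was after upper-quartile scaling (0.0452), with library size alone (0.0372) and without the ACHN DMSO replicate 1 (0.00442). The effects differed by 0.17 ± 0.11 SE, H226 minus ACHN (95% interval -0.04 to 0.38, adjusted p = 0.321).

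KLF13, which activates CCL5 in T cells and acts in heart development, was the member that rose in both lines. H226 cells had 38.6, 38.0 and 36.2 CPM with SWTX-143, against 32.4, 32.0 and 30.0 CPM with DMSO (log2 fold change 0.25 ± 0.07 SE, 95% interval 0.10 to 0.39, adjusted p = 0.00376 by edgeR). ACHN cells had 79.6, 82.0 and 73.3 CPM with SWTX-143, against 63.8, 63.3 and 63.0 CPM with DMSO (log2 fold change 0.29 ± 0.05 SE, 95% interval 0.18 to 0.40, adjusted p = 4.32e-05). In both lines all treated libraries were higher, and 14.5% of genes tested in ACHN changed at least as much. The effects differed by -0.05 ± 0.09 SE, H226 minus ACHN (95% interval -0.23 to 0.13).

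**Figure D2:**
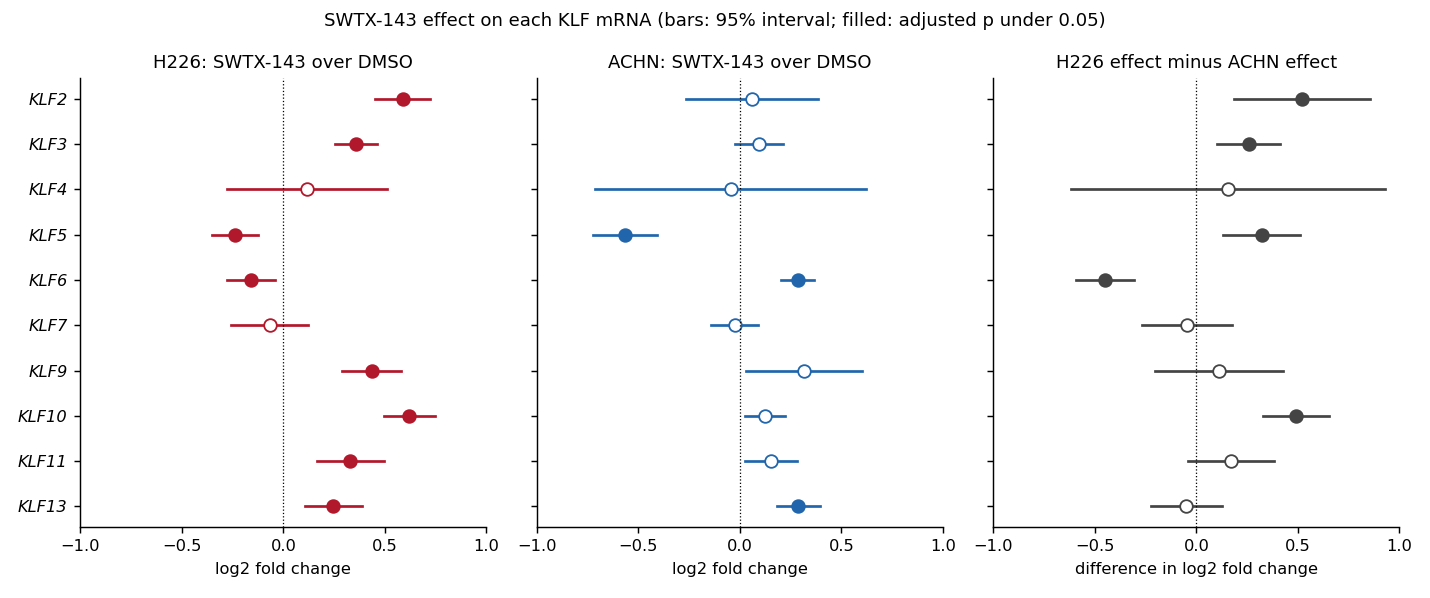
Log2 fold change of each KLF mRNA, SWTX-143 over DMSO, in H226 and in ACHN, and the H226 effect minus the ACHN effect (x axes), with 95% intervals (bars) and filled points where the adjusted p was under 0.05. KLF5 lies below 0 in both lines, KLF6 on opposite sides, and KLF13 at 0.25 in H226 and 0.29 in ACHN.

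The tests of the difference called 5 of the 10 members, 4 with a higher effect in H226 (KLF2, KLF3, KLF5 and KLF10) and 1 with a lower one (KLF6). Over all genes 15.6% were called in this contrast, 5.89% as higher and 9.7% as lower. The higher effect of KLF5 in H226 was a smaller fall. The median difference of the 10 members was 0.16, against -0.01 for all genes. The median absolute log2 fold change of the members was 0.29 in H226, against 0.18 for all genes, and 0.14 in ACHN, against 0.10.

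**Figure D3:**
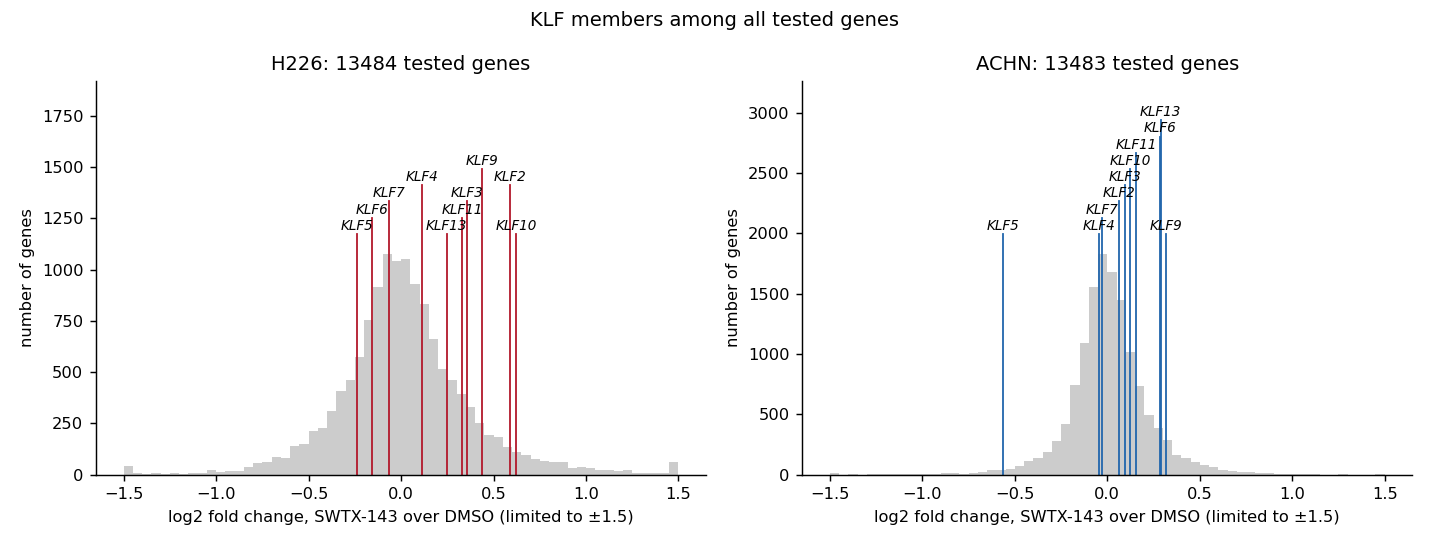
Number of tested genes (grey bars, y axis) by log2 fold change, SWTX-143 over DMSO (x axis, limited to ±1.5), in H226 and ACHN, with each KLF member as a line; label heights carry no value. The members run from KLF5 at -0.24 to KLF10 at 0.62 in H226 and from KLF5 at -0.57 to KLF9 at 0.32 in ACHN, where 3.26% of genes changed at least as much as KLF5.

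Both lines held all 10 KLF mRNAs, at different levels. Under DMSO, H226 had more KLF2, KLF9, KLF4, KLF5 and KLF3 mRNA than ACHN, and less KLF7, KLF6, KLF11, KLF13 and KLF10. All 10 passed the test, 5 in each direction, but 84.4% of all genes did so, 42.2% as higher and 42.2% as lower, and line and count table cannot be told apart. The H226 level was 6.06 times the ACHN level for KLF2 (adjusted p = 1.12e-37 by edgeR), 4.90 times for KLF9 (log2 ratio 2.29 ± 0.11 SE) and 2.42 times for KLF5 (1.27 ± 0.06). The log2 ratio was -1.75 ± 0.07 SE for KLF7, -1.51 ± 0.05 for KLF6, -1.15 ± 0.08 for KLF11, -1.01 ± 0.06 for KLF13 and -0.93 ± 0.06 for KLF10.

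Levels of different KLFs were compared as CPM per kilobase of annotated exon, given as mean ± SD of 3 libraries. In H226 with SWTX-143, KLF2 came first at 24.8 ± 1.27, followed by KLF10 at 17.4 ± 1.16, KLF3 at 16.9 ± 0.771 and KLF5 at 15.8 ± 0.685. KLF10, KLF3 and KLF5 overlapped their neighbours. In H226 with DMSO, KLF5 came first at 18.5 ± 0.363, then KLF2 at 16.4 ± 0.659, KLF3 at 13.1 ± 0.147 and KLF10 at 11.2 ± 0.929, which overlapped KLF6 at 10.7 ± 0.433. KLF5 thus stood above KLF2 with DMSO and below it with SWTX-143. In both H226 groups KLF9, KLF11, KLF13, KLF7 and KLF4 followed in that order without overlap, down to KLF4 at 1.07 ± 0.151 with SWTX-143 and 0.973 ± 0.087 with DMSO.

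In ACHN, KLF6 led at 37.7 ± 0.499 CPM per kilobase with SWTX-143 and 30.6 ± 1.52 with DMSO. KLF10 followed at 23.5 ± 0.915 with SWTX-143 and 21.4 ± 0.942 with DMSO, then KLF11 at 11.98 ± 0.303 with SWTX-143 and 10.7 ± 1.21 with DMSO. With DMSO, KLF3 (7.80 ± 0.413), KLF5 (7.64 ± 0.171), KLF7 (6.95 ± 0.695) and KLF13 (6.74 ± 0.040) each overlapped the next. With SWTX-143, KLF3 (8.41 ± 0.205) overlapped KLF13 (8.32 ± 0.475), and KLF5 came below KLF7 at 5.23 ± 0.373. KLF2, KLF9 and KLF4 were the lowest in both ACHN groups, and KLF4 had 0.307 ± 0.052 with SWTX-143 and 0.312 ± 0.029 with DMSO.

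**Figure D4:**
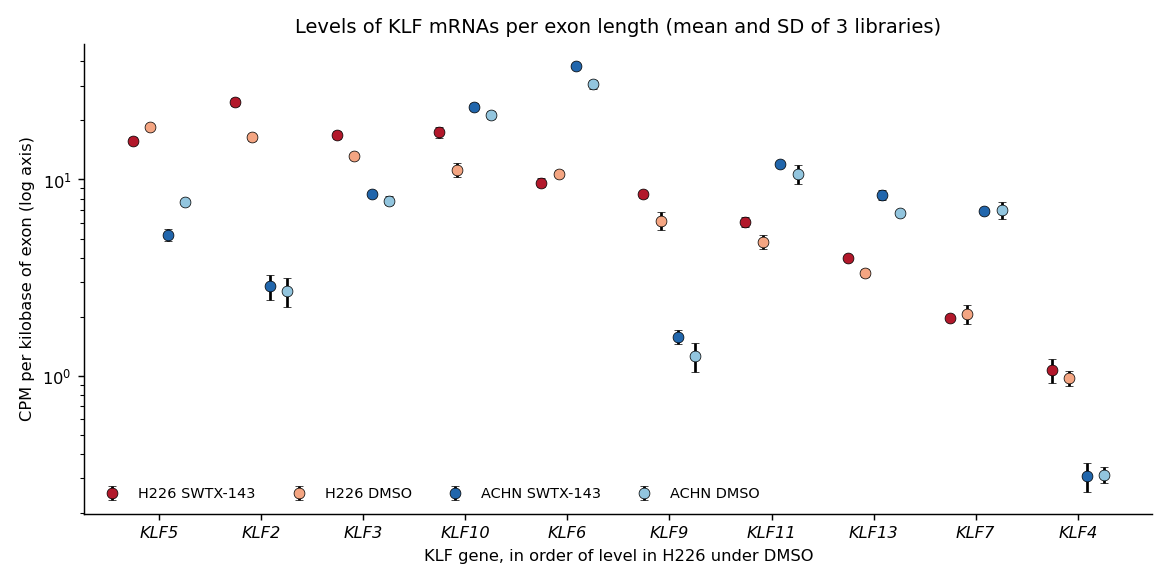
CPM per kilobase of exon (y axis, log scale) of the 10 KLF mRNAs (x axis, ordered by level in H226 with DMSO), as mean (points) and SD (bars) of 3 libraries in each of the 4 groups. KLF6 in ACHN is the highest point at 37.7 with SWTX-143, and KLF4 in ACHN the lowest at 0.307.

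The genes whose level was most like that of the leading members over the 12 libraries were found by Pearson r in log2(CPM + 0.5), among 10046 genes averaging 5 CPM or more in both lines. Line and treatment both enter this measure, so the values only describe a shared pattern. For KLF10, the largest change in H226, they were S100A6 (r = 0.988), a calcium-binding protein, MPP1 (0.985), a membrane scaffold, and PIGV (0.984), a mannosyltransferase of GPI anchor synthesis. For KLF5, the largest change in ACHN, they were COL4A1 (0.997), a basement membrane collagen, EZR (0.995), which links membrane to actin, and CCDC80 (0.995), a secreted matrix protein. COL4A1 had a log2 fold change of -0.24 in H226 and -0.53 in ACHN, CCDC80 had -0.57 in H226 and -0.89 in ACHN, and EZR had -0.10 in H226 and -0.61 in ACHN, all called. The call of EZR in H226 was lost with RLE factors (adjusted p = 0.063), upper-quartile scaling (0.313, at -0.049), library size alone (0.175) and DESeq2 (0.0775), and without the H226 SWTX-143 replicate 3 (0.193) or the H226 DMSO replicate 2 (0.117) or 3 (0.119). S100A6 rose in both lines, by 0.51 in H226 and 0.15 in ACHN.

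The other genes around the family were taken as 9 lists. Of all tested genes, 19% were called higher and 21.6% lower in H226, and 8.43% higher and 9.37% lower in ACHN. Of the known targets of TEAD, 8 of 8 fell in H226 (median log2 fold change -1.12) and 7 of 8 fell in ACHN (-1.09). The target not called in ACHN was F3, which was barely detected there. CTGF, a secreted matrix protein, had 13.9 ± 1.22 CPM with SWTX-143, against 79.9 ± 7.44 CPM with DMSO in H226 (SD, n = 3 each), and its log2 fold change was -2.53 ± 0.08 SE there and -2.39 ± 0.06 in ACHN. Its relative CYR61 fell by 1.41 ± 0.04 on the log2 scale in H226 and by 1.28 ± 0.04 in ACHN. AMOTL2, which binds YAP, fell by 0.83 ± 0.04 in H226 and by 1.19 ± 0.04 in ACHN, and AJUBA, a LIM scaffold, fell by 0.48 ± 0.05 in H226 and by 0.99 ± 0.05 in ACHN.

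Of the 16 other KLF and SP genes, 9 were tested in each line. In H226, 1 rose and 1 fell (median log2 fold change 0.02), and in ACHN none rose and 1 fell (0.05). These are lower shares than the 40.7% of all tested genes called in H226 and the 17.8% in ACHN. KLF16 fell in H226, at 24.8 ± 1.38 CPM with SWTX-143, against 34.4 ± 1.17 CPM with DMSO (log2 fold change -0.48 ± 0.08 SE). In ACHN its log2 fold change was -0.15 ± 0.07, not called (adjusted p = 0.123 by edgeR). SP6, a tooth and skin factor, rose by 0.65 ± 0.18 in H226 at low levels (5.68 CPM with SWTX-143, against 3.56 CPM with DMSO). SP2 fell by 0.23 ± 0.08 in ACHN, the only call of this list there, and it was lost with upper-quartile scaling (adjusted p = 0.0592), library size alone (0.0649), DESeq2 (0.142) and the joint fit (0.0574). It was also lost without the ACHN SWTX-143 replicate 1 (0.0713) or 2 (0.181), or the ACHN DMSO replicate 1 (0.106) or 3 (0.0787). SP3, a broadly expressed GC-box factor, had 0.08 ± 0.05 in H226 and 0.08 ± 0.04 in ACHN, SP5 had 0.54 ± 0.28 in H226, and SP8 had 0.38 ± 0.21 in ACHN, none of them called. SP3 was called in H226 after upper-quartile scaling (adjusted p = 0.0367) and without the H226 SWTX-143 replicate 3 (0.0497), and in ACHN without the ACHN DMSO replicate 1 (0.0389). KLF8 passed the filter in ACHN but not in H226, with 5.03 ± 1.08 CPM with SWTX-143, against 4.71 ± 0.702 CPM with DMSO, not called.

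Genes of KLF cofactors and of enzymes that turn KLF proteins over moved in both directions. Of 18 cofactors, 2 rose and 2 fell in H226 (median 0.02), and 1 rose and 2 fell in ACHN (-0.02). Called were 4 of 18 in H226, below the 40.7% of all tested genes, and 3 of 18 in ACHN, near the 17.8% there. In H226, SET, a histone-binding inhibitor of acetylation, fell by 0.29 ± 0.04 on the log2 scale and the deacetylase HDAC2 fell by 0.31 ± 0.05, while HDAC1 rose by 0.17 ± 0.05 and the SUMO ligase PIAS1 by 0.17 ± 0.05. In ACHN, the acetyltransferase CREBBP fell by 0.15 ± 0.04, PIAS1 rose by 0.19 ± 0.06, and HDAC2 had -0.10 ± 0.04, not called. The call of PIAS1 in ACHN was lost in DESeq2 (adjusted p = 0.144) and on leaving out any 1 of the 6 ACHN libraries (0.0508 to 0.101). That of CREBBP was lost in the joint fit (0.0571) and without the ACHN DMSO replicate 2 (0.078) or 3 (0.069), and that of HDAC1 without the H226 SWTX-143 replicate 2 (0.0507). Of 14 ubiquitin ligases and deubiquitinases reported to act on KLF proteins, 12 were tested in each line. In H226, 4 rose and 3 fell (median 0.07), and in ACHN 1 rose and 1 fell (-0.04). Called were 7 of 12 in H226, above the share of all tested genes, and 2 of 12 in ACHN, near it. FBXO32, a muscle atrophy ligase, had 46.7 CPM with SWTX-143, against 12.1 CPM with DMSO in H226 (log2 fold change 1.94 ± 0.09 SE). VHL rose by 0.33 ± 0.05 in H226 and by 0.21 ± 0.06 in ACHN, where the call was lost in DESeq2 (adjusted p = 0.0922) and without the ACHN SWTX-143 replicate 3 (0.115) or the ACHN DMSO replicate 2 (0.0651). SMURF2 fell in both, by 0.65 ± 0.05 in H226 and by 0.26 ± 0.04 in ACHN, and USP10 fell by 0.30 ± 0.05 in H226. In ACHN, BAP1 had -0.08 ± 0.05 and WWP1, a ligase of KLF2 and KLF5, had 0.11 ± 0.07, neither called. BAP1 was barely detected in H226 and not tested there. It had 9 counts summed over the SWTX-143 libraries and 8 over the DMSO libraries, against 3621 and 3718 in ACHN. WWP1 had 0.11 ± 0.06 in H226, not called.

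The ERK5 to MEF2 axis is the kinase route by which shear induces KLF2 and KLF4 in endothelium. Of its 12 genes 11 were tested in each line. In H226, 5 rose and none fell (median log2 fold change 0.19), and in ACHN 1 rose and none fell (0.03). In H226, MEF2D, a factor at MEF2 sites, had 56.8 CPM with SWTX-143, against 42.1 CPM with DMSO (log2 fold change 0.43 ± 0.07 SE). The kinases MAP3K2 and MAP2K5 rose by 0.23 ± 0.05 and 0.27 ± 0.07, and HDAC5, a repressor of MEF2, had 21.6 CPM with SWTX-143, against 11.4 CPM with DMSO (0.91 ± 0.10). MAPK7, the gene of ERK5 itself, is named for its place in the axis and not by its p. It had -0.08 ± 0.09 in H226 and 0.02 ± 0.08 in ACHN, not called in either line. MAP3K3 had -0.04 ± 0.07 in H226, not called. In ACHN, MEF2C rose at low levels (4.19 CPM with SWTX-143, against 2.66 CPM with DMSO, 0.64 ± 0.21). This call, the only one of the list there, was lost in DESeq2 (adjusted p = 0.14) and without the ACHN SWTX-143 replicate 3 (0.188) or the ACHN DMSO replicate 3 (0.13). HDAC5 (0.24 ± 0.18), MAP3K3 (0.11 ± 0.07) and HDAC7 (-0.09 ± 0.04) were not called there.

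Genes reported as KLF targets in other cells moved in both directions. In H226, 9 of 32 tested rose and 10 fell (median log2 fold change -0.04), and in ACHN 7 of 30 rose and 4 fell (-0.02). F3, tissue factor, which KLF2 represses in endothelium, fell in H226 to 57.7 CPM with SWTX-143, against 183 CPM with DMSO (log2 fold change -1.67 ± 0.05 SE), and it also stands in the list of TEAD targets. In ACHN F3 was barely detected, at 1.11 CPM with SWTX-143, against 1.27 CPM with DMSO (38 and 42 counts summed over 3 libraries). Its log2 fold change there was -0.19 ± 0.34, not called, and at this level a fall could have been missed. THBD, thrombomodulin, which KLF2 induces in endothelium, fell to 10.7 ± 0.720 CPM with SWTX-143, against 19.5 ± 0.351 CPM with DMSO in H226 (-0.87 ± 0.10), and it was picked after its values were seen. TXNIP, an inhibitor of thioredoxin, rose in both lines, by 0.98 ± 0.05 in H226 and 0.73 ± 0.04 in ACHN. KRT19, an epithelial keratin, rose by 0.51 ± 0.04 in H226 and 0.34 ± 0.04 in ACHN. CCND1, cyclin D1, a gene KLF5 induces, fell in H226 to 240 CPM with SWTX-143, against 353 CPM with DMSO (-0.56 ± 0.04), while in ACHN its log2 fold change was -0.04 ± 0.04, not called (adjusted p = 0.556 by edgeR). In ACHN, VCAM1, an adhesion molecule, had 51.5 CPM with SWTX-143, against 18.5 CPM with DMSO (1.46 ± 0.08), and EGFR fell by 0.53 ± 0.04. In H226, VCAM1 had 0 counts in both groups, and EGFR had -0.17 ± 0.11, not called.

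Genes of the hormone and clock setting of KLF9 mostly rose where called. In H226, 11 of 17 tested rose and 2 fell (median log2 fold change 0.29), and in ACHN 5 rose and 1 fell (0.20). The clock output gene DBP had 16.9 CPM with SWTX-143, against 7.40 CPM with DMSO in H226 (log2 fold change 1.18 ± 0.12 SE). PER3 had 29.2 CPM with SWTX-143, against 17.3 CPM with DMSO in H226 (0.75 ± 0.08). BHLHE41, a clock repressor, rose in both lines, by 0.87 ± 0.10 in H226 and 0.72 ± 0.12 in ACHN. SGK1, a glucocorticoid-induced kinase, fell by 0.49 ± 0.04 in H226. CRY1 fell in both lines, by 0.54 ± 0.07 in H226 and 0.68 ± 0.04 in ACHN. BHLHE40 rose in both, by 0.29 ± 0.04 in H226 and 0.20 ± 0.05 in ACHN. FKBP5, a glucocorticoid receptor chaperone, rose by 0.18 ± 0.05 in ACHN and had -0.01 ± 0.07 in H226, not called.

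In the TGF-beta setting of KLF10 and KLF11, 10 of 21 tested genes rose and 3 fell in H226 (median log2 fold change 0.19), and 6 of 20 rose and 2 fell in ACHN (0.04). In H226, ID1 and ID2, inhibitors of basic helix-loop-helix factors, rose by 0.47 ± 0.04 and 0.45 ± 0.05 on the log2 scale. ID1 also rose in ACHN, by 0.46 ± 0.13, while ID2 had 0.08 ± 0.07 there, not called. TGFBR1, a receptor gene, fell by 0.73 ± 0.07 in H226 and had 0.08 ± 0.07 in ACHN, not called (adjusted p = 0.490 by edgeR). BAMBI, a decoy receptor, had 28.0 CPM with SWTX-143, against 56.5 CPM with DMSO in H226 (-1.02 ± 0.07). In ACHN BAMBI was barely detected, at 0.476 CPM with SWTX-143, against 0.725 CPM with DMSO, and was not tested. In ACHN, the ligand gene TGFB2 fell by 0.78 ± 0.07, while JUNB (0.45 ± 0.09), TGFBR2 (0.23 ± 0.05) and LTBP2, a latent TGF-beta binding protein (0.26 ± 0.06), rose. JUNB (0.46 ± 0.07), TGFBR2 (0.31 ± 0.05) and LTBP2 (0.23 ± 0.07) rose in H226 as well, where TGFB2 had -0.89 ± 0.39, not called.

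FOXO factors are growth-arrest factors that insulin signalling holds out of the nucleus. Of these factors and their targets, 12 of 16 tested genes rose and 1 fell in H226 (median log2 fold change 0.58), and 5 of 13 rose and 3 fell in ACHN (0.29). Besides FBXO32 and TXNIP above, the pro-apoptotic BCL2L11 rose by 1.03 ± 0.09 in H226 and by 0.29 ± 0.07 in ACHN. GADD45A, a stress gene, fell by 0.61 ± 0.06 in H226 and by 0.22 ± 0.05 in ACHN. CCNG2, an atypical cyclin of quiescent cells, rose by 1.18 ± 0.09 in H226 and by 0.68 ± 0.10 in ACHN. In ACHN the insulin receptor substrate IRS2 had 25.5 CPM with SWTX-143, against 54.7 CPM with DMSO (-1.12 ± 0.07), and CDKN1B fell by 0.22 ± 0.05. In H226 IRS2 (-0.16 ± 0.07) and CDKN1B (-0.005 ± 0.062) were not called. Some genes stand in more than 1 list. Among genes named here, BCL2L11, WWP1, BHLHE41, HDAC7, COL4A1, PIAS1, SP2, MAP3K3, SMURF2, JUNB and DBP overlap another gene with at least 10% of their own counts, and their reads could not be assigned by strand. Overlaps of MAPK7, THBD and KLF8 were not looked up.

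**Figure D5:**
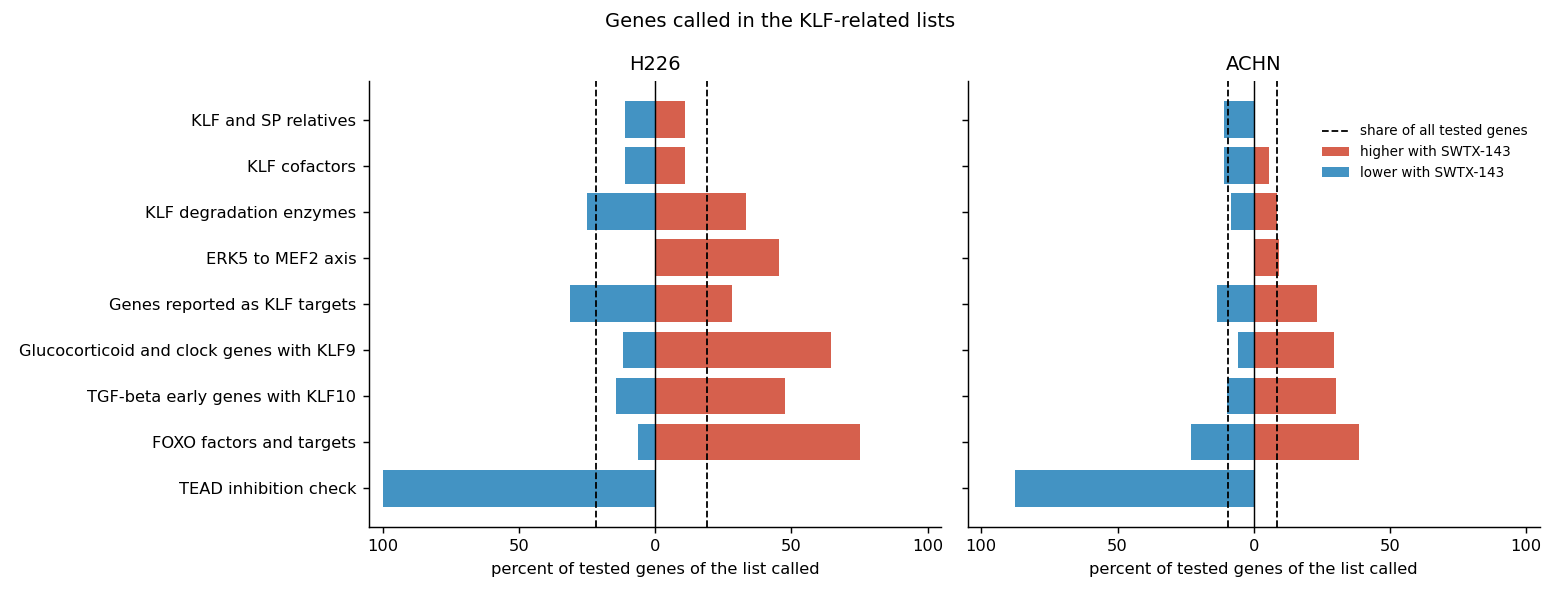
Percent of the tested genes of each list (x axis) called higher (right) or lower (left) with SWTX-143 in H226 and in ACHN, with the share of all tested genes as dashed lines. All 8 TEAD targets were lower in H226, and 12 of 16 FOXO genes and 11 of 17 hormone and clock genes were higher.

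Total counts ran from 9690980 to 11262663 per library, and no library was a copy of another. Mesothelial markers summed to 4374 to 4636 CPM in H226 with SWTX-143 and 3814 to 3974 CPM with DMSO, with 6 of 9 called higher and all 9 at 1 CPM or more. In ACHN the same list summed to 190 to 197 CPM with SWTX-143 and 224 to 227 CPM with DMSO, with 3 of 4 tested called lower and WT1 and ITLN1 at 0 counts. Kidney markers in ACHN summed to 824 to 874 CPM with SWTX-143 and 788 to 819 CPM with DMSO, with 3 of 6 tested called higher and EMX2 at 0 counts. In H226 they summed to 106 to 113 CPM with SWTX-143 and 128 to 136 CPM with DMSO, with 3 of 8 at 1 CPM or more, 1 of them called higher and 1 lower. A count of 0 allows up to 0.266 to 0.310 CPM per library, for counting error only. The leukocyte markers PTPRC and MS4A1 had 0 counts in every group, and that list summed to 13.8 to 17.2 CPM in H226 with SWTX-143 and 10.5 to 12.8 CPM with DMSO, and to 56.5 to 65.5 CPM in ACHN with SWTX-143 and 42.7 to 45.4 CPM with DMSO. Of it 1 of 2 tested was called higher in H226, and 1 of 1 in ACHN. Of the endothelial list 1 of 6 reached 1 CPM in H226 (150 to 165 CPM in sum with SWTX-143, 218 to 229 CPM with DMSO) and none in ACHN, and of the fibroblast list 1 of 6 did so in each line (64.2 to 67.0 CPM in sum with SWTX-143 and 77.5 to 79.7 CPM with DMSO in H226, 2.26 to 2.87 CPM with SWTX-143 and 3.12 to 4.09 CPM with DMSO in ACHN). The tested endothelial marker in H226 and the tested fibroblast marker in each line were called lower. The part of these shifts in the KLF changes was not tested. In such bulk libraries, fewer cells of a kind and less RNA per cell cannot be told apart.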

How the data were processed

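RNA of H226 and ACHN cells was enriched for poly(A) and sequenced in pairs of 100-base reads, per the labels' protocols. Each line has its own deposited table of raw counts, whole numbers of reads for each gene symbol, made by the authors, and all sample columns were used. Per the submitters' processing notes, the tools included STAR 2.6.1d, FastQC and cutadapt, and the build was GRCh37 (hg19). Which program counted the reads, with which annotation and strand setting, is not given in the sources used here.

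Treatment was fitted within each line in R 4.3.3 with edgeR 4.0.16 (filterByExpr, TMM, robust quasi-likelihood F test, Benjamini-Hochberg over all 13484 tested genes in H226 and 13483 in ACHN, limit 0.05). The difference between lines and the DMSO comparison of lines came from a joint fit of 12 libraries (14664 genes). SE are the log2 fold change over the root of F, with intervals by the t quantile. CPM used TMM effective library sizes over all 12 libraries, and exon lengths came from GENCODE 29 on GRCh38. Of the symbols, 25667 matched RefSeq.

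Members and lists were chosen with earlier results of these data known. Named genes are the 10 members, the 4 genes of smallest p per list and line, and the 3 most like the leading member of each line, of which 1 gene is not reported here. The main edgeR test of each comparison was tried on simulated counts, and the alternatives that follow were not. Other scalings, no filter, DESeq2 1.42.0, limma 3.58.1 voom, a replicate block, the joint fit and leaving out each library were run as alternatives. The 12 replicate pairs had a chi-square per degree of freedom of 1.36 to 3.42.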

Additional observations from a re-analysis of the deposited data

Results flagged for a closer look

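For 5 members the effect of SWTX-143 differed between the lines in edgeR's test of the difference, given in log2 units as the H226 effect less that of ACHN. It was 0.52 for KLF2, 0.26 for KLF3, 0.32 for KLF5, -0.45 for KLF6 and 0.49 for KLF10. KLF5 fell in both lines, and KLF6 was called lower in H226 and higher in ACHN. Levels under DMSO differed between the lines as well: H226 had 6.06 times the ACHN level of KLF2, 1.68 times that of KLF3 and 2.42 times that of KLF5, and its KLF6 and KLF10 were 2.86-fold and 1.91-fold lower, and the part of that in the differences was not tested.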

How the results depend on the processing

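Of 658 values of single members under other settings, 628 kept direction and side of the threshold, 11 lost the call, 6 gained it and 13 changed sign. In H226 the count of members called lower was 1 in place of 2 with upper-quartile scaling, with library size alone and in DESeq2, and ran from 1 to 2 when libraries were left out, KLF6 being the one lost. Members called higher there stayed at 6 in each. In ACHN members called higher were 4 in place of 2 with upper-quartile scaling and with library size alone, and 2 to 3 when libraries were left out, while those lower stayed at 1. In the difference between lines 3 to 4 members were higher and 1 lower, and in the comparison of lines 5 and 5. The difference of KLF2 had an adjusted p of 0.0511 in voom. Values that were not called changed sign when libraries were left out, in log2 units: KLF4 in H226 (-0.00129 to 0.185), KLF7 in H226 (-0.139 to 0.018), KLF7 in ACHN (-0.080 to 0.061, and 0.0026 with library size alone), KLF4 in ACHN (-0.177 to 0.084), KLF2 in ACHN (-0.069 to 0.175), HDAC5 in ACHN (-0.0063 to 0.345), and the difference between lines of KLF13 (-0.093 to 0.022) and KLF7 (-0.130 to 0.072). Over all genes, DESeq2 called 638 higher in ACHN in place of 1137 and 856 lower in the difference in place of 1423. When libraries were left out, calls ran from 2155 to 2539 higher and 2570 to 2826 lower in H226, 846 to 1015 and 991 to 1170 in ACHN, 716 to 1140 and 832 to 1411 in the difference, and 6098 to 6330 and 6032 to 6238 between lines. Library size alone moved the median of all genes in the comparison of lines by -0.16 on the log2 scale. Upper-quartile scaling and library size alone moved the median by 0.049 and 0.040 in H226, and by 0.023 and 0.029 in ACHN. With these 2 settings KLF6 in H226 went from -0.16 to -0.11 and -0.12, and KLF10 in ACHN from 0.12 to 0.15 and 0.15. Same-numbered replicates deviated with correlations of -0.04, 0.14 and 0.10 in H226 and -0.13, -0.14 and -0.04 in ACHN, so the numbers do not pair the samples. With a replicate block, the member counts were 6 higher and 2 lower in H226, 2 and 1 in ACHN, 4 and 1 in the difference and 5 and 5 between lines, and over all genes 2682 and 3062, 995 and 1151, 906 and 1422, and 6191 and 6185, and PIAS1 in ACHN was not called (adjusted p = 0.0524). The cause of these shifts was not tested. Depth limits KLF4 in both lines and KLF2 and KLF9 in ACHN.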
